A study of Mus musculus with 93 samples.

Results

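Macrophages sorted from the embryonic mouse brain were compared between a late group, E14.5 (n = 2) and E18.5 (n = 2), and an early group, E10.25 (n = 3) and E10.5 (n = 2). These 9 libraries were chosen by the labels for tissue (brain), cell type (Mac, macrophage) and age, out of 93 libraries of the series. The 2 brain Mac libraries of E12.5 were treated as intermediate and not tested. The series followed macrophages and their progenitors across mouse tissues and ages, and its title asks how resident tissue macrophages differentiate and become specified. Polyadenylated RNA was the input of SMART-Seq2, which copies whole transcripts from small cell numbers. No treatment or mutant allele is named for these groups, and strain, sex and sort gates are not given in the sources used here.

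Microglia are the resident macrophages of the brain parenchyma. They descend from yolk sac progenitors that reach the brain early in embryonic life and then persist there. The transcription factor Sall1, the ADP receptor P2ry12 and the surface protein Tmem119 are commonly used to tell them from other macrophages, including those at the borders of the brain.

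The windows just upstream of the annotated starts of 4 genes with called rises are shown first: the microglial transcription factor Sall1, the neighbouring receptor genes P2ry12 and P2ry13, and Spp1, which had the largest rise. Each is 250 bases of RefSeq (GRCm38.p6), 5′ to 3′ on the strand of the gene. Capitals mark GAGGAA or its reverse complement TTCCTC, a core motif bound by the general myeloid factor PU.1. The windows lie at chr8:89044163-89044412 (Sall1, minus strand), chr3:59262986-59263235 (P2ry12, minus strand), chr3:59210883-59211132 (P2ry13, minus strand) and chr5:104434861-104435110 (Spp1, plus strand).
Sall1: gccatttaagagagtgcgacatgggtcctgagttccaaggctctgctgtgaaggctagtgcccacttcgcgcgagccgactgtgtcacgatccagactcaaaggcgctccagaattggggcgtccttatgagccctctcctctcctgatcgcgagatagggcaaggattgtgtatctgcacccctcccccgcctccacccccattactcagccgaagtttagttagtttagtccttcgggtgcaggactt
P2ry12: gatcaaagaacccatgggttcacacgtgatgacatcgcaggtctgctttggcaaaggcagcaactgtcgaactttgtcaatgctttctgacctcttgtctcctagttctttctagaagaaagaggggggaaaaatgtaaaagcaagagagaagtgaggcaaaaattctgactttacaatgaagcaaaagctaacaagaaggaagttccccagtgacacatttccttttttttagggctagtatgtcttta
P2ry13: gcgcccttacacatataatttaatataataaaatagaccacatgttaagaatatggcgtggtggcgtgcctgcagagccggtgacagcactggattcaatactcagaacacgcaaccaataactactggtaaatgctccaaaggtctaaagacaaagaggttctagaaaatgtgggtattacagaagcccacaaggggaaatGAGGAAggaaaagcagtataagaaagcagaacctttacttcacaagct
Spp1: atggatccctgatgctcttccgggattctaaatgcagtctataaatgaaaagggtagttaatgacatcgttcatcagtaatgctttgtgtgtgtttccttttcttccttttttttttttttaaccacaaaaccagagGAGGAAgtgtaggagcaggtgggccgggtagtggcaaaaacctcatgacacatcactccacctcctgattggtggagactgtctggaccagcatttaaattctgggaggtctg
P2ry13 and Spp1 held 1 match each, and the shown windows of Sall1 and P2ry12 held no such letters. The bases just downstream of the window were found in a GENCODE transcript for Sall1, P2ry13 and Spp1, but not for P2ry12. The start used for P2ry12 was thus not matched to that annotation. Sall1 has 3 windows in the table and Spp1 has 2, of which the first is shown. Among all 32851 promoter windows of this length, 23.3% held the motif on either strand. It was present in 5 of 37 windows of the 26 risen genes with an entry (Ccng2, Cd82, Fcrls, P2ry13 and Spp1), and in 7 of 12 windows of the 8 fallen genes with one (Dab2, F13a1, Fcna, Iqgap2, Unc119 and Vim). A match describes letters in the window, not a bound site.

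Levels are on the deposited log2 scale, summed per gene, so that 1 unit is a factor of 2, and the lowest possible level is a common floor of 5.37, under which values were treated as not detected. Between 19068 and 24288 of 37521 transcripts lay above the floor in the 9 libraries. The lowest count was that of E14.5 replicate 1, against 22064 to 23881 in the other late and 20656 to 24288 in the early libraries. Sequencing depth is unknown because the file holds no counts. The shape of each library's lowest values divided the series into 60 libraries with a one-sided and 33 with a two-sided band of low values. All 4 late libraries, E10.25 replicates 1 and 2 and E10.5 replicate 1 were one-sided, while E10.25 replicate 3, E10.5 replicate 2 and both E12.5 libraries were two-sided. E14.5 replicate 1 stood apart from the other late libraries. Its correlations across genes with them were 0.49 to 0.51, against 0.65 to 0.71 among those 3, and with the 5 early libraries 0.517 to 0.652. Median correlations were 0.582 within the late group, 0.669 within the early group and 0.587 between the groups. E12.5 replicate 1 went against its label. Genes common to macrophages averaged 8.85 in it, against 12.25 in E12.5 replicate 2, 12.40 to 12.75 in the late and 11.18 to 12.22 in the early libraries, and neuron markers averaged 10.05, against 8.69 in E12.5 replicate 2 and at most 7.73 in the 9 compared libraries. Results are therefore given for each E12.5 library. The labels do not say which replicates are separate animals, so the p-values reflect variation between libraries that could be technical.

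Of the microglia genes, 10 rose in the late brain macrophages and the other 19 tested did not pass. Of 30 listed genes 29 were measured, all 29 were tested, and each had a positive late-minus-early difference, from 0.23 to 5.64, with a median of 2.20 against 0.04 over all genes tested. In 20 of the 29, every late library lay above every early one, which held for 3.35% of all genes tested. Called higher were 10 of the 29 and called lower 0, against 0.320% and 0.0899% of all 10009 genes tested. Calls required a limma p under 0.05 after Benjamini-Hochberg adjustment together with a log2 difference of 1 or more in either direction. The number of called microglia genes was 7 within the one-sided libraries (4 late, 3 early) and 12 without E14.5 replicate 1. It was 6 to 12 over the fits that left out 1 library. Among all genes, 13 of 10156 were called higher within the one-sided libraries. Without E14.5 replicate 1 these were 116 of 10497, against 32 of 10009 with all 9 libraries. In both of these smaller fits a gene had to be detected in fewer libraries to be tested. In bulk RNA, more cells with a gene's RNA and more RNA per cell cannot be told apart.

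Sall1, a zinc finger transcription factor required for microglial identity, was at 12.71 and 13.04 in the E14.5 libraries and at 12.40 and 12.04 at E18.5, against 7.72, 6.47 and 5.37 at E10.25 and 7.72 and 7.25 at E10.5. The lowest late library stood more than 4 units above the highest early one, and 1 early library was at the floor. The mean was 12.55 ± 0.43 in the late group (SD, n = 4) and 6.91 ± 1.0 in the early group (SD, n = 5), a difference of 5.64 ± 0.64 (SE; limma adjusted p = 0.00062). Leaving out any 1 library gave 5.26 to 5.84, and the call held in all 9 such fits. In mm10 the protein-coding gene Sall1 (ENSMUSG00000031665.7) spans 89027235 to 89044162 of chromosome 8, minus strand.

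P2ry12, the receptor through which microglial processes sense ADP, was at 15.52 and 13.94 at E14.5 and 13.24 and 13.21 at E18.5, against 10.69, 9.79 and 10.31 at E10.25 and 10.52 and 10.74 at E10.5. It was thus already well above the floor in every early library and higher in each late one. The means were 13.98 ± 1.08 in late and 10.41 ± 0.39 in early libraries (SD), a difference of 3.57 ± 0.50 (SE; limma adjusted p = 0.00174, called in all 9 fits that leave out 1 library).

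Tmem119, a transmembrane protein of unclear function in microglia, was at 12.18 and 10.80 at E14.5 and 11.16 and 12.14 at E18.5, against 5.94, 9.05 and 10.53 at E10.25 and 9.46 and 10.36 at E10.5. The groups did not overlap, but the early libraries ranged widely. The difference of 2.50 ± 0.77 (SE) did not pass (limma adjusted p = 0.184). So 2 of the 3 microglia markers were called, and all 3 were detected in every library of both groups apart from Sall1 in E10.25 replicate 3.

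**Figure D1:**
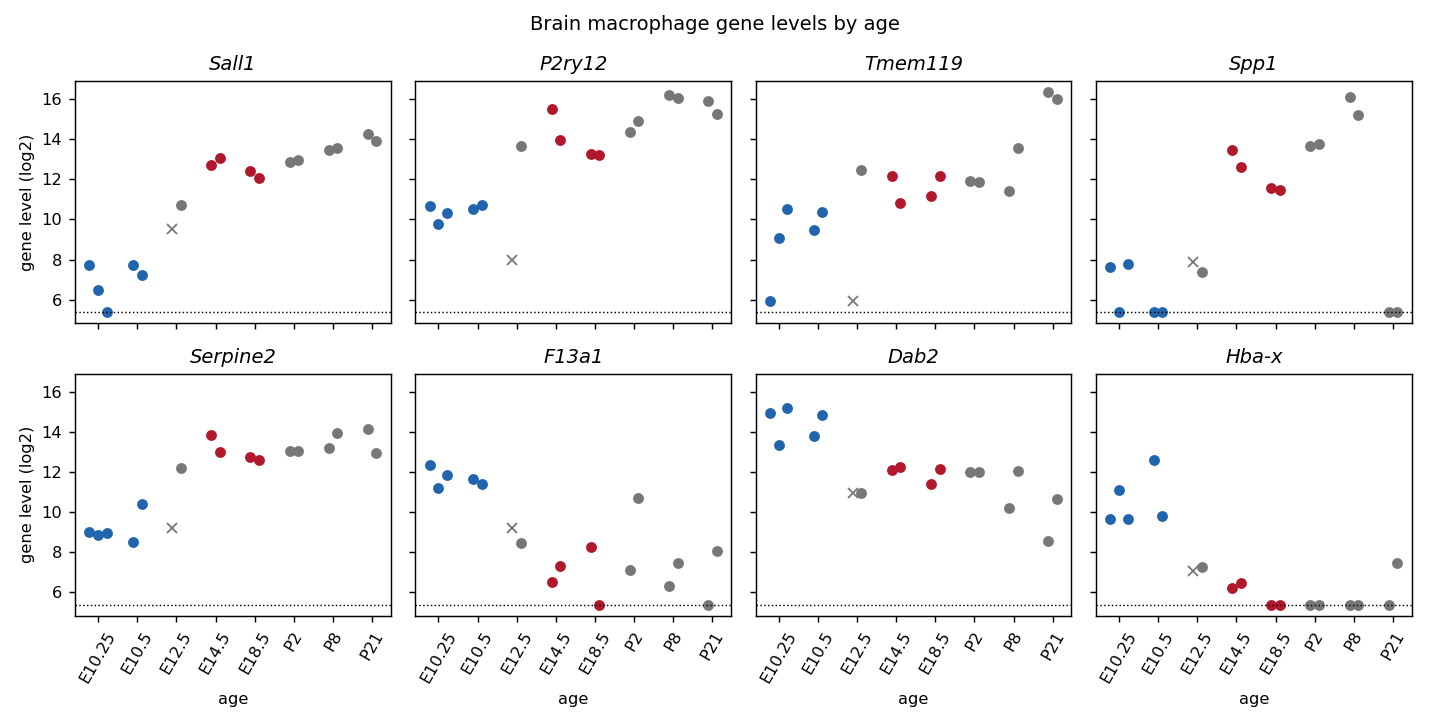
Gene levels (log2) of 8 genes in each brain macrophage library by age, with early libraries in blue, late libraries in red and all others in grey. The dotted line is the floor of 5.37 and the cross is E12.5 replicate 1. Sall1, P2ry12 and Serpine2 stayed high after birth, whereas Spp1 was at the floor in both P21 libraries.

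Among the receptors for extracellular nucleotides, P2ry13 rose with P2ry12. P2ry13, another ADP receptor and a neighbour of P2ry12 on chromosome 3, was at 13.90, 11.57, 12.33 and 12.59 in the late libraries (E14.5 before E18.5), against 9.02, 9.09, 10.18, 9.60 and 10.17 in the early libraries (E10.25 before E10.5). The groups did not overlap, and the difference was 2.99 ± 0.52 (SE; limma adjusted p = 0.0156). The UDP receptor P2ry6 differed by 0.23 ± 0.47 (SE; adjusted p = 0.877) and the ectonucleotidase Entpd1 by 1.29 ± 0.50 (adjusted p = 0.296). Of 19 listed genes 15 were measured and 9 tested, with a median difference of 1.63, against 0.04 over all genes tested. Called higher were 2 and called lower 0, against 0.320% and 0.0899% of all genes tested. Over the fits that leave out 1 library 1 or 2 were called higher, and P2ry12 in each.

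The other called microglia genes had a range of functions. Serpine2, a secreted protease inhibitor, was at 13.84, 12.99, 12.73 and 12.58 in the late libraries, against 9.01, 8.85, 8.94, 8.52 and 10.41 in the early libraries. Its difference was 3.89 ± 0.50 (SE; limma adjusted p = 0.000956). Olfml3, a secreted olfactomedin-like protein, was at 13.07, 12.39, 12.42 and 13.12 in late and at 7.99, 8.32, 9.34, 9.52 and 8.69 in early libraries. No late library came within 2 units of an early one, and the difference was 3.98 ± 0.49 (SE; limma adjusted p = 0.000956).

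Siglech, a sialic acid-binding receptor, was at 13.61, 13.27, 13.11 and 13.35 in late and at 10.17, 9.10, 9.99, 10.47 and 10.92 in early libraries, a difference of 3.20 ± 0.45 (SE; limma adjusted p = 0.00174). Serpine2, Olfml3 and Siglech were called in all 9 fits that leave out 1 library and within the one-sided libraries. Crybb1, a crystallin gene, differed by 4.16 ± 0.71 (SE; adjusted p = 0.0137) and Sparc, a secreted collagen-binding protein, by 3.09 ± 0.54 (SE; adjusted p = 0.0156). Sparc lost its call without E14.5 replicate 2 (highest adjusted p = 0.0644), and Crybb1 without either E18.5 library (highest adjusted p = 0.085).

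Fcrls, an Fc receptor-like scavenger gene, was already high in the early group. It averaged 14.74 ± 0.21 in late and 12.54 ± 0.41 in early libraries (SD), a difference of 2.20 ± 0.44 (SE; limma adjusted p = 0.0325). Leaving out 1 library at a time, its call held in 2 of 9 fits, with adjusted p up to 0.118. The chemokine receptor Cx3cr1 and the protease inhibitor Cst3, the highest listed genes that were not called, differed by 1.55 ± 0.45 (adjusted p = 0.152) and 1.44 ± 0.48 (adjusted p = 0.225).

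**Figure D2:**
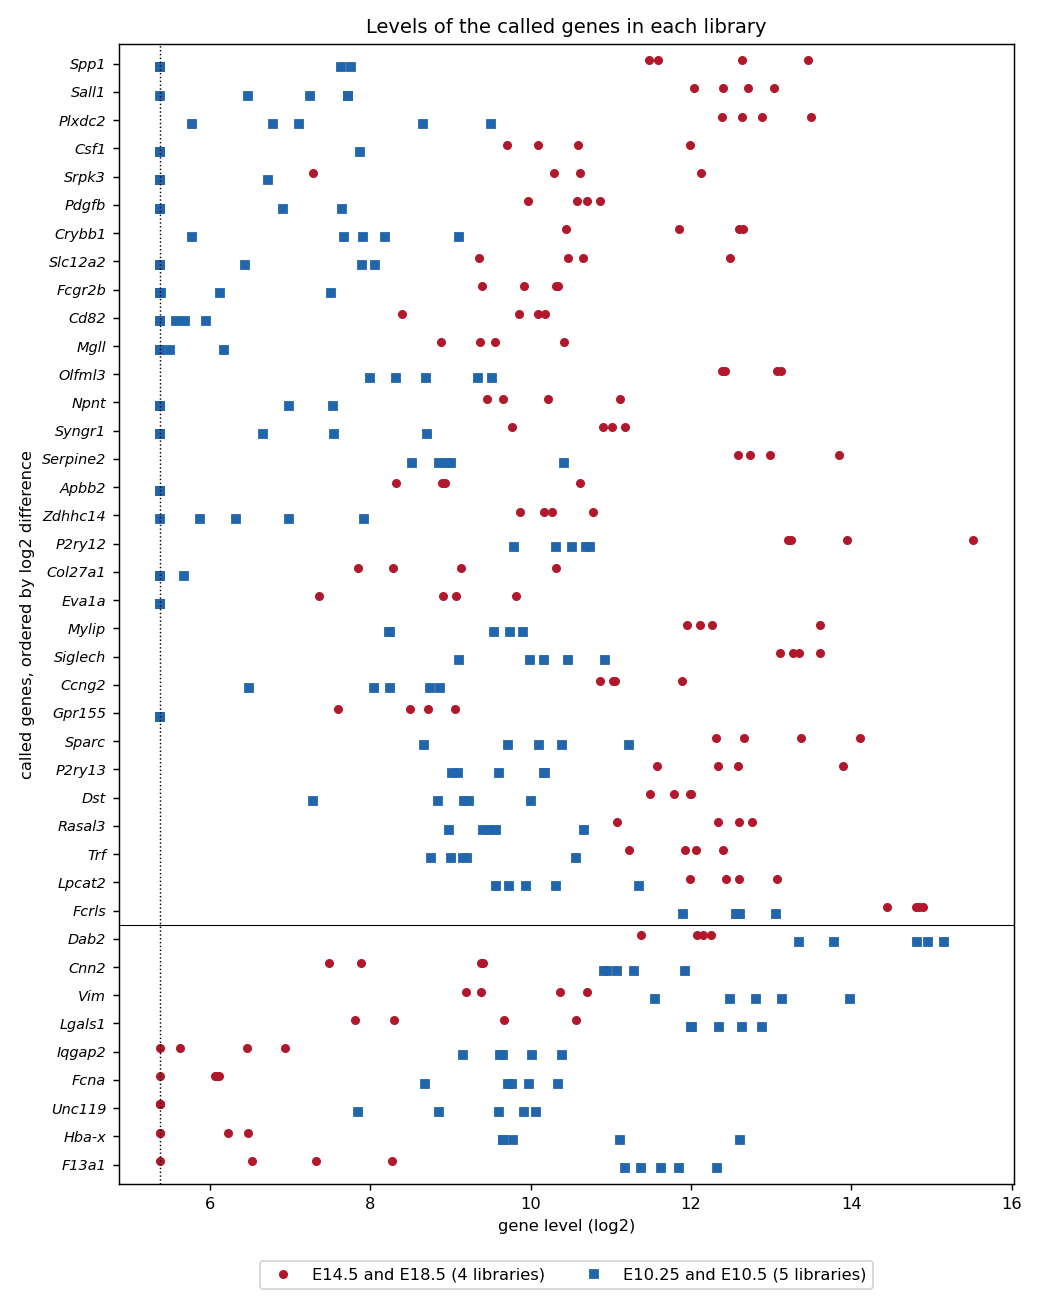
Levels (log2) of 40 of the 41 called genes in each of the 4 late libraries (red circles) and 5 early libraries (blue squares), ordered by log2 difference. The thin line divides the genes that rose from the 9 that fell, and the dotted line is the floor of 5.37. In each of the 40 genes drawn the groups do not overlap.

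Apart from Sall1, no gene of the transcription factor list passed the test. Of 30 listed genes 30 were measured and 27 tested, with 1 called higher, 0 lower and a median difference of 0.81. Of all genes tested 0.320% were called higher, and their median was 0.04. The most abundant, Bhlhe41 and Maf, a basic helix-loop-helix repressor and a macrophage factor, differed by 1.15 ± 0.84 (SE; limma adjusted p = 0.619) and 0.06 ± 0.52 (adjusted p = 0.973). Bhlhe41 was at 16.69 in E14.5 replicate 1 and at 11.53 to 11.90 in the other late libraries, and without E14.5 replicate 1 its difference was -0.10. Genes of TGF-beta signalling, on which microglia depend, had a median difference of 1.07 over 20 tested of 28 measured, with 0 called in either direction. At an unadjusted limma p under 0.05, 5 were higher and 0 lower, against 730 higher and 493 lower of all 10009 genes tested. The receptor gene Tgfbr1 was at 13.56, 11.78, 12.36 and 12.49 in late and at 10.13, 10.21, 11.32, 10.61 and 10.17 in early libraries. The groups did not overlap, and the difference of 2.06 ± 0.47 (SE) missed the threshold (limma adjusted p = 0.0613). Nrros, which anchors latent TGF-beta on microglia, differed by 0.69 ± 0.56 (adjusted p = 0.66).

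The largest rise of all genes was in a secreted signal. Spp1 (osteopontin), a matrix protein and cytokine, was at 13.46 and 12.63 at E14.5 and 11.59 and 11.48 at E18.5, against 7.63, 5.37 and 7.76 at E10.25 and 5.37 in both E10.5 libraries. It was at the floor in 3 of 5 early libraries and high in each late one. The means were 12.29 ± 0.94 in late and 6.30 ± 1.27 in early libraries (SD), a difference of 5.99 ± 0.78 (SE; limma adjusted p = 0.000956, called in all 9 fits that leave out 1 library). Since part of the early group is at the floor, the size depends on where the floor lies.

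Csf1, a growth factor that acts through the receptor Csf1r, was at 9.71, 11.98, 10.59 and 10.09 in late and at 7.87, 5.37, 5.37, 5.37 and 5.37 in early libraries. It was above the floor in 1 early library, and its difference was 4.72 ± 0.85 (SE; limma adjusted p = 0.0202, called in 4 of 9 fits that leave out 1 library). Pdgfb, a platelet-derived growth factor chain, was at 9.96, 10.70, 10.86 and 10.58 in late and at 5.37, 5.37, 5.37, 6.91 and 7.64 in early libraries, a difference of 4.39 ± 0.80 (SE; adjusted p = 0.0207, called in 3 of 9). Csf1r itself averaged 15.45 ± 0.33 in late and 14.13 ± 0.32 in early libraries (SD) and did not pass (difference 1.32 ± 0.49 SE, adjusted p = 0.279). Of the cytokine and chemokine list, 29 of 35 genes were measured and 18 tested, with Spp1 and Pdgfb called higher, 0 called lower and a median of 0.22. Of all genes tested, 0.320% were called higher and 0.0899% lower, with a median of 0.04. Of the list of genes described as induced in microglia in neurodegeneration, 19 of 22 measured were tested, with Spp1 and Csf1 called higher and a median of 0.68. The lipid carrier Apoe, the most abundant of that list, differed by 1.32 ± 0.58 (adjusted p = 0.366).

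Of 32 lysosomal genes 30 were tested, 28 had a positive difference, against 5165 of all 10009 genes tested, and 1 was called, against 0.320% of all genes called higher. In 8 of the 30 every late library lay above every early one, against 3.35% of all genes. The median was 0.95, and the abundant proteases Ctsd and Ctsb differed by 1.76 ± 0.50 (adjusted p = 0.144) and 0.28 ± 0.56 (adjusted p = 0.877). Among phagocytic receptors, 1 of 19 tested (of 25 measured) was called. This was Fcgr2b, the inhibitory receptor for IgG, at 9.92, 10.34, 9.39 and 10.32 in late and at 6.12, 5.37, 5.39, 5.37 and 7.51 in early libraries (difference 4.04 ± 0.79 SE, limma adjusted p = 0.0325, called in 2 of 9 fits that leave out 1 library). The activating receptor Fcgr3 differed by 0.08 ± 0.48 (adjusted p = 0.96). Trf, the iron carrier transferrin, was the 1 gene called among 16 tested iron and heme genes, with a difference of 2.56 ± 0.51 (SE; adjusted p = 0.0325, called in 2 of 9 fits that leave out 1 library). None of the 12 complement genes tested was called, and the C1q chains C1qb and C1qc differed by 0.62 ± 0.51 (adjusted p = 0.669) and 1.31 ± 0.49 (adjusted p = 0.277).

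Among the genes in no list, 17 were called higher. Plxdc2, a plexin domain receptor, was at 13.49, 12.64, 12.38 and 12.88 in late and at 6.78, 5.77, 8.65, 7.11 and 9.51 in early libraries, a difference of 5.28 ± 0.69 (SE; limma adjusted p = 0.000956). Mylip, a ubiquitin ligase for lipoprotein receptors, was at 13.61, 12.26, 12.11 and 11.95 in late and at 8.23, 8.24, 9.54, 9.74 and 9.90 in early libraries, a difference of 3.35 ± 0.54 (SE; limma adjusted p = 0.00929). Both were called in all 9 fits that leave out 1 library and within the one-sided libraries.

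Cd82, a tetraspanin, was at 10.09, 10.18, 9.85 and 8.40 in late and between 5.37 and 5.95 in early libraries (difference 4.04 ± 0.75 SE, adjusted p = 0.0219, called in 4 of 9). The kinase Srpk3 ranged from 7.29 to 12.12 in late and from 5.37 to 6.72 in early libraries (4.44 ± 0.93 SE, adjusted p = 0.0421, called in 1 of 9). The chloride cotransporter Slc12a2 differed by 4.11 ± 0.88 (SE; adjusted p = 0.0456) and lost its call in each of the 9 fits. The remaining 12 had differences of 2.34 to 3.99, and each kept its call in 1 to 3 of the 9 fits. They were the lipid enzymes Mgll and Lpcat2, the matrix proteins Npnt and Col27a1, the cytoskeletal linker Dst, the cyclin Ccng2, and Apbb2, Eva1a, Gpr155, Rasal3, Syngr1 and Zdhhc14. Apbb2, Eva1a and Gpr155 were at the floor in all 5 early libraries.

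Fewer genes fell. The largest fall was in F13a1, the A chain of clotting factor XIII and a gene of brain border macrophages. It was at 6.52 and 7.32 at E14.5 and 8.27 and 5.37 at E18.5, against 12.32, 11.18 and 11.85 at E10.25 and 11.63 and 11.37 at E10.5. The highest late library was nearly 3 units below the lowest early one. The means were 6.87 ± 1.23 in late and 11.67 ± 0.44 in early libraries (SD), a difference of -4.80 ± 0.64 (SE; limma adjusted p = 0.00107, called in all 9 fits that leave out 1 library).

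Dab2, an endocytic adaptor that border macrophages also express, was at 12.07, 12.25, 11.38 and 12.15 in late and at 14.95, 13.35, 15.16, 13.78 and 14.82 in early libraries. The groups did not overlap, and the difference was -2.45 ± 0.49 (SE; limma adjusted p = 0.0325, called in 3 of 9). Of 20 border macrophage genes, all measured, 15 were tested and 12 had a negative difference, with a median of -1.85. Called higher were 0 and called lower 2, against 0.320% and 0.0899% of all genes tested. In 5 of the 15 all late libraries lay below all early ones, against 1.49% of all genes tested. Without E14.5 replicate 1, 6 members were called lower. Calls rose among all genes too in that fit, with 57 of 10497 lower, against 9 of 10009 with all libraries. Within the one-sided libraries 1 member was called lower, and 2 of all 10156 genes tested. The mannose receptor Mrc1 averaged 10.89 ± 0.57 in late and 13.32 ± 1.40 in early libraries (SD) and did not pass (difference -2.43 ± 0.61 SE, adjusted p = 0.0865). The scavenger receptor Stab1 differed by -0.85 ± 0.65 (adjusted p = 0.634). F13a1, Dab2 and Mrc1 are not restricted to border macrophages and are expressed by fetal macrophages of other tissues too.

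Fcna, a ficolin of the Kupffer cell list, was at 6.11, 6.06, 5.37 and 6.07 in late and at 10.34, 9.98, 9.76, 8.68 and 9.72 in early libraries. It was close to the floor in every late library (difference -3.79 ± 0.75 SE, limma adjusted p = 0.0325, called in 2 of 9). It was the 1 call among 5 tested of 14 Kupffer cell genes, against 0.0899% of all genes tested called lower.

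The other genes that fell include several of the cytoskeleton and cell surface. Lgals1 (galectin 1, a secreted lectin) was at 10.56, 9.67, 7.81 and 8.30 in late and at 12.01, 12, 12.64, 12.88 and 12.35 in early libraries, a difference of -3.29 ± 0.55 (SE; limma adjusted p = 0.013). The intermediate filament gene Vim was at 10.70, 10.36, 9.19 and 9.38 in late and at 12.49, 12.81, 13.98, 13.13 and 11.55 in early libraries, a difference of -2.88 ± 0.52 (SE; adjusted p = 0.0207). For both genes the E18.5 libraries were lower than the E14.5 libraries. The actin regulators Cnn2 (-2.69 ± 0.56 SE, adjusted p = 0.0418) and Iqgap2 (-3.67 ± 0.76, adjusted p = 0.0418) and the trafficking gene Unc119 (-3.89 ± 0.78, adjusted p = 0.0325) also fell. Lgals1 was called in 7 of 9 fits that leave out 1 library, Vim in 5, Unc119 in 3, and Cnn2 and Iqgap2 in 1. Of these 5 genes, Vim alone was called within the one-sided libraries. Unc119 was at the floor in all 4 late libraries and at 7.84 to 10.06 in the early libraries.

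Proliferation genes had negative differences in 34 of 35 cases, against 4844 of all 10009 genes tested, and none was called. All 35 S phase and mitosis genes were tested, the median difference was -0.82, and 0 were called by limma, with 8 lower and 0 higher at an unadjusted p under 0.05, against 493 lower and 730 higher of all genes tested. The list averaged 9.70 to 10.33 in the late libraries and 10.31 to 11.74 in the early libraries. The proliferation marker Mki67 averaged 12.99 ± 1.15 in late and 13.72 ± 0.58 in early libraries (SD; difference -0.73 ± 0.55 SE, adjusted p = 0.626), and the topoisomerase Top2a differed by -1.01 ± 0.50 (adjusted p = 0.437). Of 18 measured genes of the fetal growth programme 12 were tested, 11 had a negative difference and 0 were called, with a median of -1.30. The RNA-binding Igf2bp3 and the chromatin protein Hmga1, its most abundant members, differed by -0.46 ± 0.60 (adjusted p = 0.797) and -0.83 ± 0.50 (adjusted p = 0.535). The list averaged 6.63 to 6.89 in late and 7.32 to 8.63 in early libraries.

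**Figure D3:**
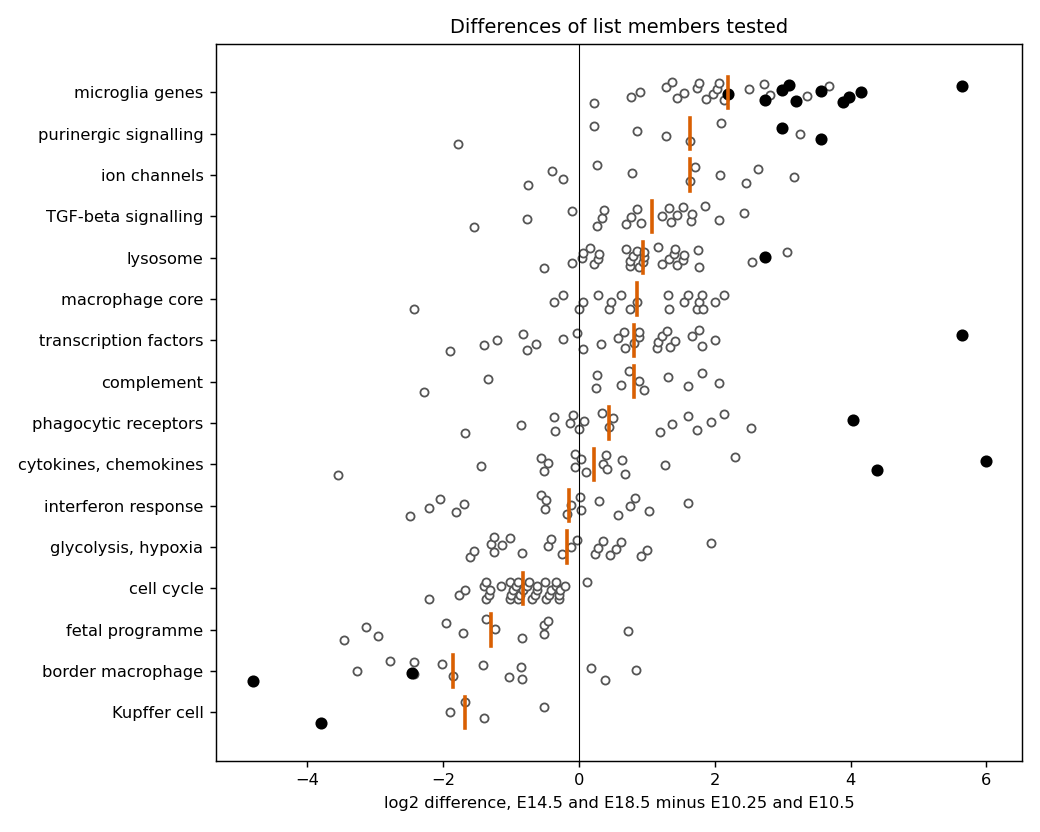
Log2 differences, late minus early, of the tested members of 16 gene lists. Each circle is a gene, filled if called, and the orange bar is the median over the members tested. Microglia genes lie to the right of 0 with a median of 2.20, and border macrophage and Kupffer cell genes lie mostly to the left with medians of -1.85 and -1.68.

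Of 111 measured markers of other cell types, 20 averaged at least 8.37 in either group, 7 of them higher in the late and 13 higher in the early group. Hba-x, the embryonic zeta globin, was the 1 called marker. It was at 6.23, 6.47, 5.37 and 5.37 in late and at 9.66, 11.11, 9.66, 12.61 and 9.78 in early libraries, and fell by 4.70 ± 0.81 (SE; limma adjusted p = 0.015, called in 8 of 9 fits that leave out 1 library, not without E10.25 replicate 2). The erythroid list averaged 5.50 to 6.22 in late and 6.72 to 8.54 in early libraries, and 5 of its members, among them Alas2, Klf1, Epb42 and Rhag, were at the floor in all 9. Of 14 measured erythroid genes 7 were tested, and Hba-x alone was called, against 0.0899% of all genes called lower.

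Neuron markers averaged 6.61 to 7.71 in late and 5.59 to 7.73 in early libraries, and neural progenitor markers averaged 6.56 to 8.12 in late and 6.73 to 8.19 in early libraries. The highest late values were both in E14.5 replicate 1 and the highest early values both in E10.25 replicate 2. Of the neuron list 7 of 14 measured genes were tested and of the neural progenitor list 8 of 12, with 0 called. The median difference was 1.29 for the neuron list, with 6 of 7 positive, and 0.13 for the neural progenitor list. The neuron genes Map2 and Gap43, a dendritic and a growth cone protein, had unadjusted p under 0.05 (2.46 ± 1.0 SE, adjusted p = 0.327, and 2.45 ± 0.91, adjusted p = 0.277). Endothelial markers averaged 5.46 to 6.09 in late and 6.13 to 6.96 in early libraries, with Cldn5, Esam and Emcn at the floor in all 9, and 4 of 13 were tested and 0 called, with a median of -2.19 and all 4 negative. The progenitor and endothelial surface protein Cd34 averaged 7.30 in late and 9.85 in early libraries (-2.55 ± 0.94 SE, adjusted p = 0.272). Of the megakaryocyte list, the platelet chemokine Pf4 averaged 6.73 in late and 9.99 in early libraries, with no overlap (-3.26 ± 0.73 SE, adjusted p = 0.0591). Pf4 is in the border macrophage list too. Of the 9 measured megakaryocyte genes it alone was tested, and the others averaged at most 6.0 in either group. Of the mesenchyme and pericyte list 0 of 14 genes passed the filter on low levels, and of the mast cell list 0 of 2. The part of these other cell types in the differences of the macrophage genes was not tested.

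**Figure D4:**
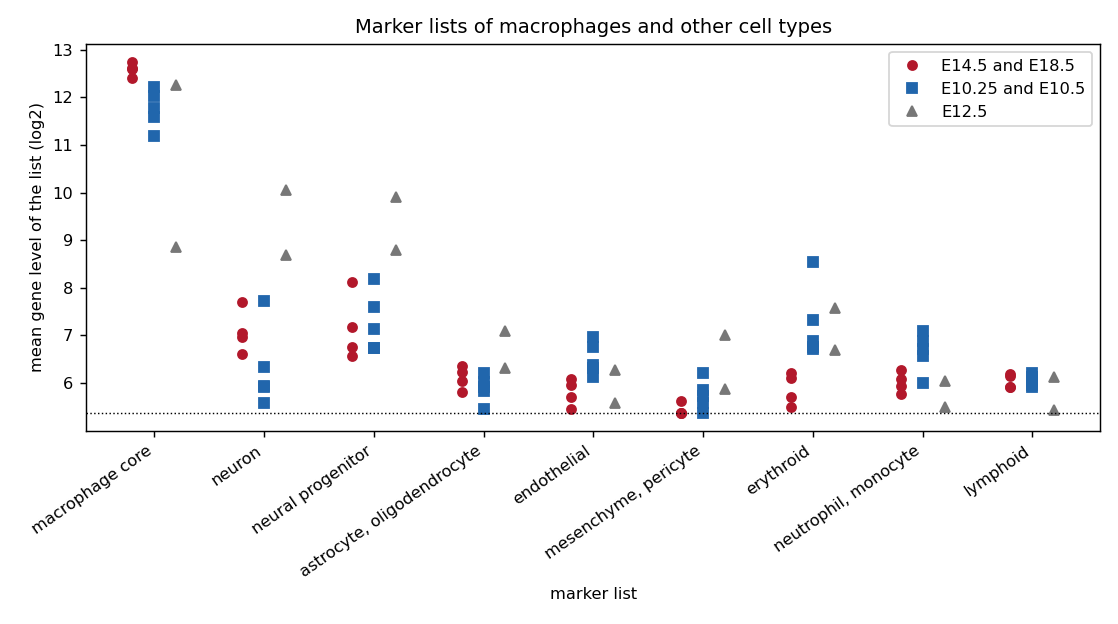
Mean level (log2) of the measured genes of 9 marker lists in each late library (red circles), early library (blue squares) and E12.5 library (grey triangles). The dotted line is the floor of 5.37. E12.5 replicate 1 has the lowest macrophage value, 8.85, and the highest neuron value, 10.05.

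The remaining lists had no or 1 called member. Adhesion and matrix genes had Sparc as their 1 call among 26 tested, against 0.320% of all genes called higher, with a median of 0.71. The ion channel list had 0 called of 11 tested and a median of 1.64, and macrophage core genes 0 of 21 and a median of 0.86. Of those 21 core genes 18 had a positive difference and in 6 every late library lay above every early one, against 3.35% of all genes tested. The mean of the core list did not overlap between the groups either, and its part in the differences of the microglia genes was not tested. Pattern recognition (17 tested, median 0.37), interferon response (18, -0.14), MHC class I (15, 0.30) and class II (5, 0.97), cytokine receptors (23, 0.16), D cyclins and their inhibitors (15, 0.43) and glycolysis (22, -0.18) had 0 called. So did lipid metabolism (21, 0.10), immediate early and stress genes (14, 0.33), progenitor genes (6, 0.45) and the lists of astrocytes and oligodendrocytes (2, 0.10), megakaryocytes (1, -3.26), neutrophils and monocytes (4, -2.25) and lymphoid cells (2, 0.00). Of all 37 lists, 12 had a called member.

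Over all genes, 41 of 10009 were called, which is 0.410%, with 32 higher and 9 lower, and 1223 had an unadjusted p under 0.05. The count rested on few libraries. It was 173 without E14.5 replicate 1, 32 without E10.5 replicate 1, 23 without E10.25 replicate 1 or E10.5 replicate 2, 19 without E14.5 replicate 2, 15 without E10.25 replicate 2 or replicate 3, 12 without E18.5 replicate 2 and 11 without E18.5 replicate 1. Within the one-sided libraries 15 genes were called, 13 of them among the 41. The late group has no two-sided library, so the same comparison cannot be made within the other set. Under quantile normalization the split was 53 higher and 38 lower of 91. On simulated data of this design 43 of 50 rises and 37 of 50 falls of 4 log2 units were found, and 9 and 6 of 50 of 2 units, so most smaller differences were not detectable. The same simulation gave 9 false calls.

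The 9 genes called in every fit that leaves out 1 library were Sall1, Spp1, Plxdc2, Serpine2, Olfml3, P2ry12, Siglech, Mylip and F13a1. Of the 41 genes, 15 kept their call in at least 5 of the 9 fits.

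The intermediate age was read from E12.5 replicate 2, since replicate 1 went against its label. Neuron and neural progenitor markers averaged 8.69 and 8.79 in replicate 2, against at most 7.73 and 8.19 in the 9 compared libraries. The part of neural RNA in its levels was not tested. Of the 32 genes that rose, 30 were above all 5 early libraries in E12.5 replicate 2, against 7.36% of all genes tested, and 9 in replicate 1, against 9.88%. In replicate 2, 30 of the 32 lay between the early and the late mean, a count for which no share over all genes was taken. Sall1 was at 9.52 in replicate 1 and 10.73 in replicate 2, P2ry12 at 7.97 and 13.65 and Serpine2 at 9.18 and 12.21. Spp1 was at 7.88 and 7.40, within the early range in replicate 2. Of the 9 genes that fell, 8 were below all early libraries in replicate 2, against 23.6% of all genes tested, and 6 in replicate 1, against 28.7%. F13a1 was at 9.21 and 8.44 and Dab2 at 10.95 and 10.94. The 41 genes were chosen on the same early libraries, which raises these counts, so they are a description only.

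After birth, 28 of the 32 risen genes were above all early libraries in all 6 brain libraries of P2, P8 and P21 (n = 2 each), against 3.22% of all genes tested. Of the 9 fallen genes 7 were below all early libraries in all 6, against 1.50%. Mean levels of Sall1 were 12.90 at P2, 13.51 at P8 and 14.07 at P21, of P2ry12 14.62, 16.12 and 15.57 and of Tmem119 11.89, 12.49 and 16.18. Spp1 averaged 13.69 at P2 and 15.67 at P8 and was at the floor in both P21 libraries, while Csf1 was at 10.53 and 10.27 at P2, 9.28 and 9.89 at P8 and 5.37 and 11.50 at P21. The 2 P21 libraries thus differed in Csf1, with 1 at the floor. F13a1 was at 7.09 and 10.71 at P2, 6.33 and 7.48 at P8 and 5.37 and 8.06 at P21. In 22 of the 32 risen genes both P21 libraries were above all late embryonic ones. No share over all genes was taken for this count, so it does not set the risen genes apart. These ages share the early libraries with the test that chose the genes and were not tested.

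The changes in brain were set beside those in liver macrophages of the same ages. The change in brain minus the change in liver was tested in a limma fit of the 9 brain libraries with 3 late (E14.5 n = 1, E18.5 n = 2) and 4 early (E10.25 and E10.5, n = 2 each) liver Mac libraries. Of 11789 genes tested 162 were called, which is 1.37%, with 53 positive and 109 negative. Of the 41 brain genes 13 were called, 12 positive and 1 negative. These 41 were chosen for their brain change, which is a part of this contrast, so their number of calls is a description only.

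Sall1 was at 5.37 in all 3 late liver libraries and at 5.37, 5.37, 5.37 and 6.46 in the early ones, so that the difference between the changes was 5.91 ± 1.08 (SE; limma adjusted p = 0.00475). Spp1 was at the floor in all 3 late and in 3 of 4 early liver libraries (6.82 ± 1.31 SE, adjusted p = 0.00688), and Csf1 in all 7 (4.72 ± 1.04, adjusted p = 0.021). Fcrls was at 6.51, 8.32 and 5.71 in late and at 12.12, 11.77, 11.30 and 11.20 in early liver libraries, the opposite direction to brain (6.96 ± 0.70 SE, adjusted p = 1.21e-05). Rasal3, a RAS GTPase activator, was also lower in late than in early liver libraries, at 6.12 ± 1.30 in late and 8.62 ± 1.07 in early ones (SD; 5.07 ± 0.98 SE, adjusted p = 0.00723).

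Fcna went the other way. It was at 13.60, 15.92 and 15.30 in late and at 12.15, 11.89, 10.92 and 11.63 in early liver libraries, and the change in brain minus that in liver was -7.08 ± 0.79 (SE; limma adjusted p = 3.89e-05). The calls of Sall1, Spp1, Plxdc2, Fcrls, Rasal3 and Fcna held in each of the 16 fits that leave out 1 library.

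For the other 28 of the 41 genes no difference between the tissues was called, which does not show equal changes. On simulated data of this fit, 24 of 50 differences of 4 units and 17 of 50 of -4 units were found, and 2 of 50 of 2 units in either direction. F13a1 was at 9.26, 5.37 and 5.37 in late and at 11.16, 11.64, 11.35 and 10.04 in early liver libraries, and the difference of the changes was -0.42 ± 1.13 (SE; limma adjusted p = 0.906). Dab2 averaged 11.68 ± 0.04 in late and 13.87 ± 0.15 in early liver libraries (SD), with a difference of the changes of -0.26 ± 0.62 (SE; adjusted p = 0.895). P2ry13 averaged 11.53 ± 0.48 in late and 8.70 ± 1.85 in early liver libraries (0.15 ± 1.01 SE, adjusted p = 0.965), and Cd82 was at 10.53, 11.60 and 11.40 in late liver libraries and at the floor in all 4 early ones (-1.77 ± 1.03 SE, adjusted p = 0.473). P2ry12 averaged 9.62 ± 1.72 in late and 9.53 ± 0.70 in early liver libraries, and its difference of 3.48 ± 0.91 (SE) missed the threshold (adjusted p = 0.0593). So did those of Pdgfb (3.75 ± 1.05 SE, adjusted p = 0.0846) and Iqgap2 (-3.81 ± 1.03, adjusted p = 0.0726).

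The 5 most negative differences of all genes at this level were Hbb-bs (-9.61 ± 1.25 SE, adjusted p = 0.000161), Hbb-bt, Tmcc2, Cd5l and Hba-a2 (-8.15 ± 1.17, adjusted p = 0.00038), of which Cd5l is a Kupffer cell gene and the Hbb and Hba genes are globins. Hbb-bs, an adult beta globin, was at 16.30, 16.77 and 17.66 in the 3 late liver libraries and at 5.37 to 8.15 in the early ones. The part of red cell RNA in these differences was not tested. The globin copies Hbb-bs and Hbb-bt, and Hba-a1 and Hba-a2, are nearly identical and cannot be separated with certainty. The most positive were Fcrls, Spp1, Zmym6, Sall1 and Mlxipl. Mlxipl, a carbohydrate-responsive transcription factor, averaged 10.47 ± 1.93 in late and 7.56 ± 1.36 in early brain libraries (SD) and was not called in brain. In liver it averaged 8.27 ± 1.19 in early libraries (SD) and was at the floor in all late ones. The change in brain minus that in liver, 5.81 ± 1.38 (SE; limma adjusted p = 0.031), thus includes a fall in liver.

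**Figure D5:**
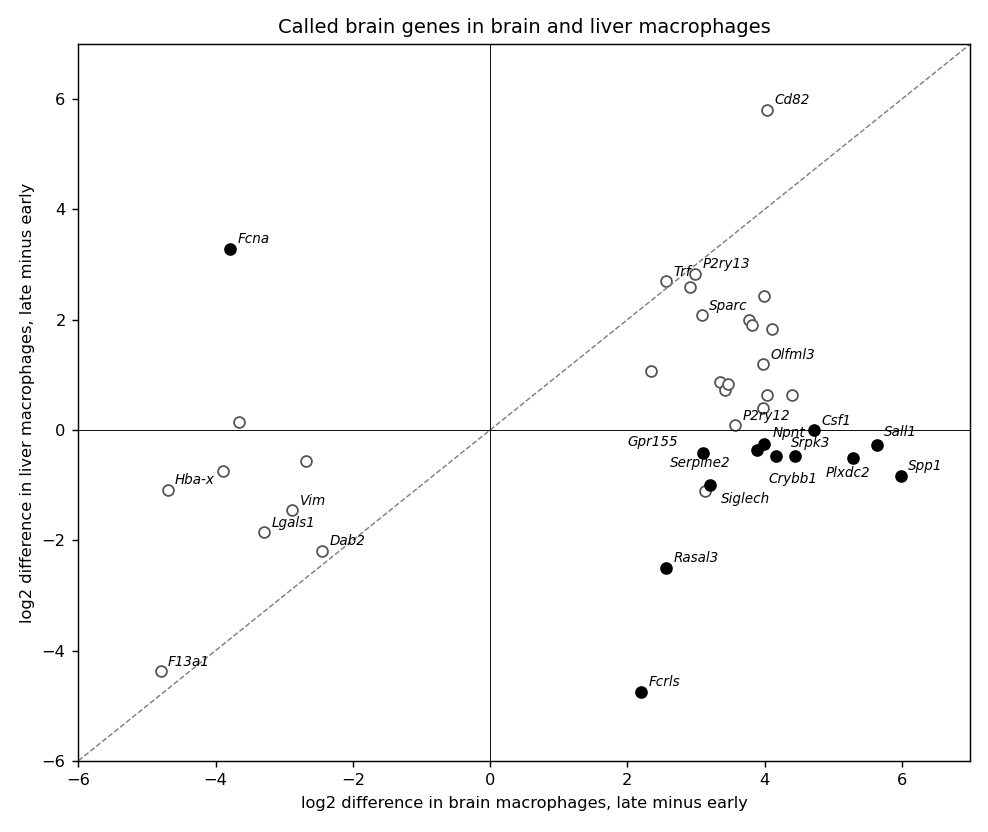
Differences of mean levels (log2, late minus early) of 40 of the 41 called brain genes in brain (x axis) and liver (y axis) macrophages. Filled circles are the 13 genes whose difference between the tissues was called, and the dashed line marks equal changes. Sall1, Spp1 and Csf1 lie near 0 in liver, Fcna and Fcrls on opposite sides of 0 in the tissues, and F13a1 and Dab2 near the line of equal change.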

How the data were processed

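The deposited table gives 1 log2 value per Ensembl transcript (37521) and library (93), already normalized by the authors per the file headers. The values run from 0.836 to 19.006, from which base 2 was inferred. The sources used here do not state the normalization. The submitters' processing notes list Bowtie 1.1.1, DESeq2 and mm10, with no role for any of them.

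Each library's band of lowest values was placed at its percentile 5 (2.32 to 4.87), and a floor 0.5 above the highest band was applied. A library whose lowest value lay over 0.5 below its band was called two-sided. Of the transcripts, 36703 matched GENCODE vM21 by identifier and 818 did not. The part of each transcript value above the floor was summed per gene on the linear scale. The floor was then added back and the log2 taken, giving 14181 genes. In the fit of all compared brain libraries a gene was tested if it reached 6.37 in at least 4 of them. The liver fit and fits with a smaller late or early group asked for only as many libraries as their smallest group held. A gene high in one group thus passes through that group.

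Differences were fitted in R 4.3.3 by limma 3.58.1, using an intensity trend, over the 9 brain libraries in 2 groups, or over 16 brain and liver libraries with an interaction contrast. The design foresaw counts, and since none are given the log2 values were fitted. Fits were tested on simulated data. The groups, the 37 gene lists and the tests were chosen with earlier results of these data known, and lists of tissue macrophage genes may hold genes the study chose on these samples. Genes are named in full by a rule: the 10 largest called rises and falls with a mean of at least 8.37 in the higher group and no overlap, the 3 markers, and in each list up to 5 called members per direction and the 2 most abundant not called. For the liver comparison these are the 5 most positive and 5 most negative. The other called genes, and the erythroid and endothelial genes at the floor, were named after their values were seen. Alternatives were other floors, filters, scalings, variance settings, sample sets and ages, and leaving out each library. Values of some called or listed genes are not reported here.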

Additional observations from a re-analysis of the deposited data

Results flagged for a closer look

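Of the 84 sets of late or early values of the 42 genes examined, 4 held equal values, and in 8 of the other 80 the gap of 1 library to the rest of its group passed Dixon's criterion. Chance gives about 1 in 20 where values are not tied, but in 5 of the 8 the floor sets the gap in full or in part. For Col27a1 (5.67, E10.25 replicate 2), Srpk3 (6.72, the same library) and Csf1 (7.87, E10.25 replicate 1) the other 4 early libraries were all at the floor, and for Mgll (6.18, E10.25 replicate 2) 3 of them were. For Fcna the lowest late value, 5.37 in E18.5 replicate 1, was the floor. The remaining 3 were Fcrls in E18.5 replicate 1 (14.44, lowest), Trf in E10.25 replicate 2 (10.57, highest) and Serpine2 in E10.5 replicate 2 (10.41, highest).

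The change from early to late differed between brain and liver macrophages in the limma interaction test for 20 of the named genes. The change in brain minus that in liver, on the log2 scale, was 6.96 for Fcrls, 6.82 for Spp1, 6.05 for Zmym6, 5.91 for Sall1, 5.81 for Mlxipl, 5.79 for Plxdc2, 5.07 for Rasal3, 4.91 for Srpk3, 4.72 for Csf1 and 4.63 for Crybb1. It was 4.26 for Serpine2, 4.25 for Npnt, 4.20 for Siglech and 3.52 for Gpr155. It was negative for Fcna (-7.08), Hba-a2 (-8.15), Cd5l (-8.39), Tmcc2 (-8.51), Hbb-bt (-8.99) and Hbb-bs (-9.61). Of these 20 calls 11 held in each of the 16 fits that leave out 1 library. Crybb1 and Srpk3 kept theirs in 3 of 16, Mlxipl in 5, Siglech in 6, Npnt in 7, Serpine2 in 9, Gpr155 in 10, Zmym6 in 12 and Csf1 in 14.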

How the results depend on the processing

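The 41 calls between late and early brain macrophages kept their direction in every alternative fit per gene in which the gene was tested. Calls of the fit per transcript were counted and not compared by direction. The count moved with most choices. It was 91 under quantile normalization, 9 with no filter on low levels, 14 with the replicate block, 15 within the one-sided sample set, 12 with the sample set as a covariate (an alternative added after the data were seen), 5 with E14.5 and 52 with E18.5 as the only late age, 13 with E10.25 and 2 with E10.5 as the only early age, and 9 genes in a fit per transcript without the floor. It ranged from 11 to 173 when 1 library was left out. Other floors, gene summaries, a stricter filter, a median shift and other variance settings gave 39 to 56, and fits with 1 mean per age gave 32, or 59 with all brain ages included. Some alternatives hold fewer libraries or more genes, and the cause of these shifts was not tested. The late group has no two-sided library, so in the fit with the sample set as a covariate the effect of the set rests on the early libraries alone. Replicate numbers did not pair the libraries, since deviations of same-numbered libraries correlated between ages at -0.116 to 0.061, so the block result describes numbers only. Of 733 gene and alternative pairs other than leave-outs, 434 kept the call and 299 lost it. The count of genes with a different change in brain and liver was 162 and ranged from 105 to 261 when 1 library was left out, with the extremes without liver E10.5 replicate 2 and E14.5 replicate 2. With the replicate block it was 118. Depth is unknown, and the floor limits what could be seen of genes of low level.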

Other observations

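The 2 late ages have 2 libraries each and were not tested against each other. Of the 32 genes that rose, 11 (34.4%) had both E18.5 libraries below both E14.5 libraries, near the 25.8% of all genes tested, and 1 had them above, against 14%. The 11 include Spp1 (11.59 and 11.48 at E18.5, against 13.46 and 12.63 at E14.5), P2ry12, Mylip, Sparc and Serpine2. Crybb1, at 12.60 and 12.65 at E18.5 against 10.44 and 11.85 at E14.5, was the 1 gene with the opposite order. Of the 9 genes that fell, 4 (Cnn2, Hba-x, Lgals1 and Vim) had both E18.5 libraries below both E14.5 libraries. E14.5 replicate 1, which stood apart from the other late libraries, is 1 of the 2 libraries of its age, and its part in these orders was not tested.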
